A study of Mus musculus with 24 samples.

Results

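Tdh, Gcat, Gldc, Phgdh, Psat1, Psph, Shmt1, Shmt2 and Mthfd2 encode the core enzymes that break down threonine, make and cleave glycine, make serine and pass its carbon to folate. These 9 genes were taken as a list of names that was chosen with earlier results of these data known. All 9 were found among the 35591 genes of the count table, where Gcat has 2 entries. mRNA was measured in 24 libraries from 6 male mouse embryonic stem cell (mESC) lines, each derived from a separate blastocyst, and each sampled before (day 0) and on days 2, 2.5 and 3 after the start of differentiation towards neuromesodermal progenitors (NMPs), the caudal cells that give rise to spinal cord and paraxial mesoderm. All lines came from Castaneus (Cast) mothers and C57BL/6 fathers carrying 1 deleted and 1 floxed Smchd1 allele and the MMTV-Cre transgene. The 3 Smchd1 del/+ lines (het) inherited the deleted allele from the father, and the 3 Smchd1 fl/+ lines (wt) inherited the floxed one, so that the oocyte had normal SMCHD1 in both genotypes. Day 0 cells, labelled as grown in DMEM with LIF, had been moved stepwise from 2i + LIF to a DMEM medium with serum, added non-essential amino acids and LIF. The last mixture that the study's methods give before day 0 still held some 2i medium, which contains CHIR99021, an activator of Wnt signalling. From day 0 they were kept in N2B27 medium with bFGF, and CHIR99021 was added from day 2. Cells for day 0 were seeded at a higher density than those for days 2, 2.5 and 3. From day 0 to day 2 medium, added factors, seeding density and time therefore changed together. From day 2 to day 2.5 CHIR99021 and time did, and these cannot be told apart within those steps. GDF11 was not yet added in any of these samples.

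Library totals ran from 7.10 to 20.8 M counted reads with a median of 17.9 M, where M stands for 1000000. Levels are given in CPM, the counts of a gene per 1000000 counts of its library after scaling with the TMM factors of edgeR. Smchd1 was lower in het than in wt lines on all 4 days without overlap, at 54.7% to 66.3% of the wt mean. Naive pluripotency markers summed to between 889 and 1023 CPM at day 0 and to between 69.2 and 123 CPM later. The 8 caudal epiblast markers, which include T, Cdx2 and Sox2, summed to between 214 and 284 CPM at day 0, to between 49.2 and 92.0 CPM at day 2, with Sp5 at 0, to between 684 and 1318 CPM at day 2.5 and to between 507 and 924 CPM at day 3. The 14 endoderm markers summed to between 885 and 2850 CPM at day 0 and to between 3440 and 11726 CPM at day 2. Among them, Afp had no count in wt at day 0 or in het at days 2 and 3. Ttr had none in either genotype at day 0. The sum was lower in each het line than in each wt line on days 0 and 2. At day 2.5 the genotypes overlapped, at 4210.0 to 6007 CPM in het and 3824 to 10179.9 CPM in wt, as they did at day 3, at 2936 to 4829 CPM in het and 3814 to 7659 CPM in wt. Fibroblast markers stayed between 11 and 50.1 CPM. In bulk samples, fewer cells of a type and less RNA per cell cannot be told apart.

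In the mouse, threonine dehydrogenase (TDH) and glycine C-acetyltransferase (GCAT) act in turn in the mitochondrion to split threonine into glycine and acetyl-CoA, and mESCs are known for their need of threonine. Glycine is then cleaved by the glycine cleavage system, whose decarboxylase is GLDC, and the freed carbon unit is loaded onto folate. Serine is made from a glycolytic intermediate by PHGDH, PSAT1 and PSPH in that order, and the SHMT enzymes turn serine into glycine while loading folate, SHMT1 in the cytosol and SHMT2 in the mitochondrion, where MTHFD2 oxidises the folate product.

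The promoters of 4 members are shown because they differed in how they moved. Gcat rose early, Psat1 rose and then fell, Shmt1 fell and then partly recovered, and Shmt2 passed the test in no step. Each stretch is the 120 bases just before a RefSeq transcription start on GRCm38.p6, written 5′ to 3′ on the strand of the gene. Capitals mark GGGCGG, the GC box bound by the SP1 family, and CCAAT, the box bound by NF-Y, on either strand, and 2 overlapping GC boxes stand in the Shmt1 promoter. The Gcat stretch is at chr15:79030754-79030873 (+), that of Psat1 at chr19:15925060-15925179 (-), before the farther upstream of its 2 starts, that of Shmt1 at chr11:60811266-60811385 (-) and that of Shmt2 at chr10:127522445-127522564 (-).
Gcat: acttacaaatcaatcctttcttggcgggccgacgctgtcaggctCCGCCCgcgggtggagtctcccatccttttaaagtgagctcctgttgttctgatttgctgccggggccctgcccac
Psat1: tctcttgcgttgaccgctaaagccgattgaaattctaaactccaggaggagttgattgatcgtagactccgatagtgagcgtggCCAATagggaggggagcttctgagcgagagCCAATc
Shmt1: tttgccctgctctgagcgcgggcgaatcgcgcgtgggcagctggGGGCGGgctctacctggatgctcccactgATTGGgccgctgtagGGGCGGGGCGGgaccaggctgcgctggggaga
Shmt2: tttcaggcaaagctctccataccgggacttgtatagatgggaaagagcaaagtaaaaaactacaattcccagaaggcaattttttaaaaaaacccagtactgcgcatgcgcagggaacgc

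RefSeq windows were at hand for 8 of the 9 members, the exception being Tdh, and Psat1 has 2 of the 9 windows. The Psat1 window not shown holds 1 GGGCGG and no CCAAT, and the shown one holds 2 CCAAT and no GGGCGG. In the 250 bases before the start, GGGCGG was found in 5 of the 9 windows against 32.7% of all 32851 windows of this length, and CCAAT in 6 of the 9 against 33.8%. TGATGNAA, the core of the element bound by ATF4, was in none of the 9 windows and in 3.45% of all windows. CACGTG, the E-box bound by MYC, was in none of the 9 and in 6.02% of all. A match is a description of these letters and not evidence of binding.

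Tdh lies on chromosome 14 (GRCm38 14:63492347-63509092, minus strand) and encodes the first enzyme of threonine breakdown. It had the largest log2 fold changes of the 9 genes in each step and genotype, with a deep fall by day 2, a partial return by day 2.5 and a further fall by day 3. At day 0 its level was 228, 222 and 239 CPM in wt lines 1, 2 and 3, and 215, 229 and 205 CPM in het lines 1, 2 and 3. At day 2 the same lines gave 10.5, 10.6 and 14.1 CPM in wt and 10.7, 11.8 and 11.8 CPM in het. No library of day 2 came near any library of day 0, although the counts at day 2 were still 179 to 284 reads.

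At day 2.5 Tdh stood at 182, 115 and 109.9 CPM in the wt lines and at 107, 128 and 124 CPM in the het lines. At day 3 it stood at 32.9, 19.3 and 23.9 CPM in wt and at 15.6, 40.1 and 22.9 CPM in het. The 4 days thus held 4 separate ranges, and on each day the genotypes overlapped. From group means, Tdh was 19.6-fold lower at day 2 than at day 0 in wt and 18.9-fold lower in het. It was then 11.5-fold and 10.4-fold higher at day 2.5, when it had reached 59.1% and 55.3% of its day 0 mean. By day 3 it was 5.34-fold and 4.57-fold lower than at day 2.5. In edgeR's quasi-likelihood test, with p adjusted over all genes tested by the Benjamini-Hochberg method, Tdh fell from day 0 to day 2 with a log2 fold change of -4.28 ± 0.14 (SE) in wt (adjusted p = 1.05e-10). The fall in het was -4.23 ± 0.09 (adjusted p = 4.53e-14). The rise to day 2.5 was 3.53 ± 0.21 in wt (adjusted p = 2.06e-07) and 3.36 ± 0.11 in het (adjusted p = 1.15e-10). The second fall was -2.41 ± 0.23 in wt (adjusted p = 0.000316) and -2.21 ± 0.25 in het (adjusted p = 0.00016). All 6 lines moved down, up and down in turn.

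Gm17232, an antisense gene inside Tdh, shares 66 exon bases with it, and its count was between 2.46% and 7.31% of that of Tdh. Counting did not appear to use strand, because Gm44067 and Gm26656, which have the same coordinates on opposite strands, had identical counts in all 24 libraries. Reads of Tdh and Gm17232 can therefore not be told apart where the genes overlap. Of the stretches of 75 exon bases of Tdh, 92.6% were in no other annotated gene, and the rest were also in Gm13929.

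Gcat (15:79030874-79038353, plus strand) encodes the enzyme that takes the product of TDH to glycine, and it moved the other way from Tdh in the first step. At day 0 it stood at 36.7, 28.9 and 34.1 CPM in wt lines 1 to 3 and at 27.4, 30.9 and 26.8 CPM in het lines 1 to 3. On day 2 it stood at 74.4, 67.4 and 74.6 CPM in wt and at 77.0, 71.8 and 78.1 CPM in het, above every library of day 0. This rise was 1.13 ± 0.13 on the log2 scale in wt (adjusted p = 1.47e-05) and 1.42 ± 0.10 in het (adjusted p = 1.07e-08). While Tdh rose and fell again, Gcat stayed between 63.2 and 88.1 CPM, and neither later step passed the test. A further Gcat entry of the table, which runs on into Galr3, shares 1132 exon bases with the first (47.5% of the first and 65.2% of the second). It rose by 1.21 ± 0.15 in wt and 1.5 ± 0.12 in het in the first step, but the entries share reads and are counted here as 1 gene.

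**Figure D1:**
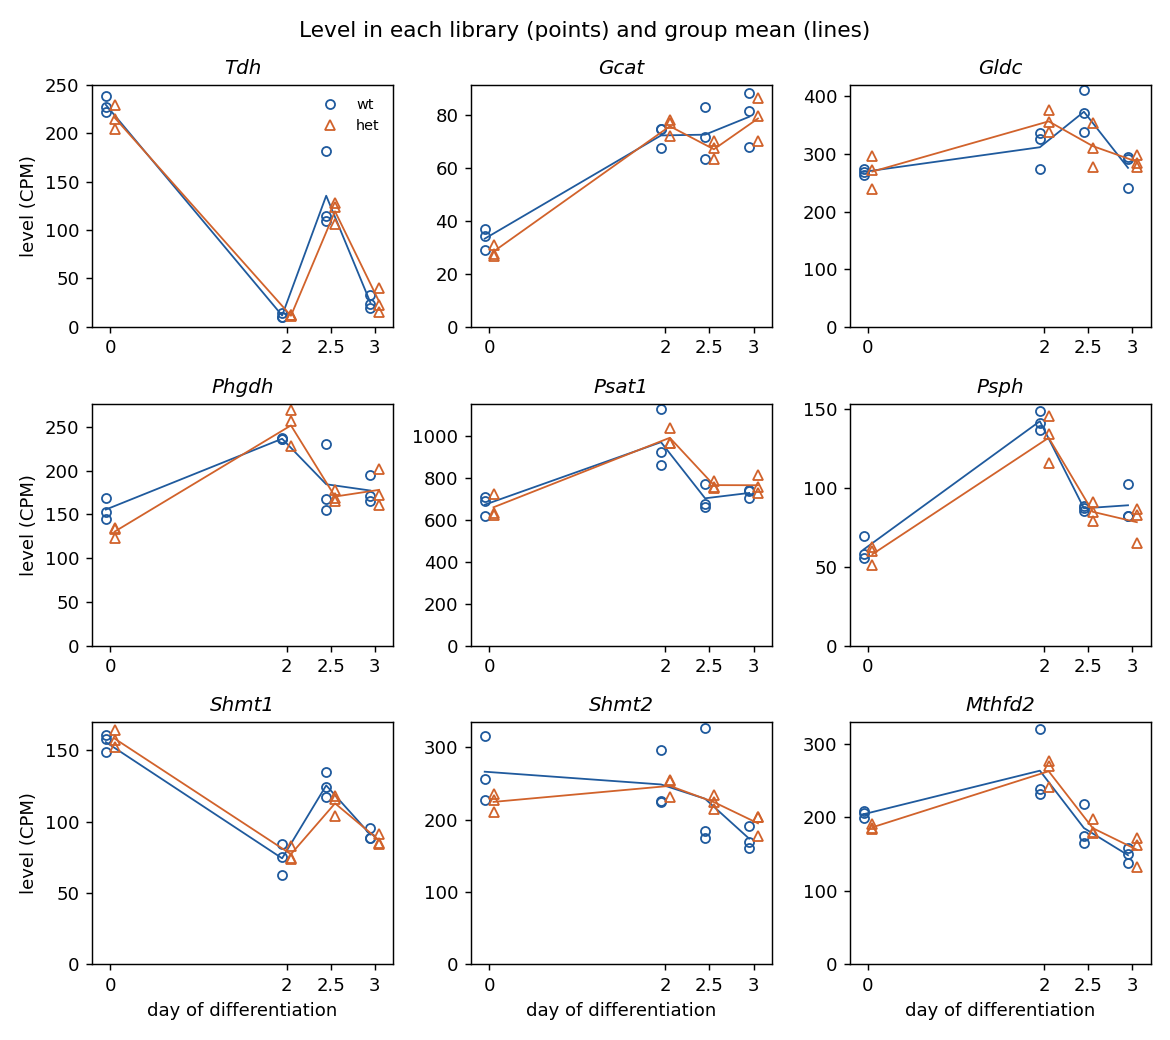
Level in CPM (y axis, from 0) by day of differentiation (x axis) for the 9 genes, with wt libraries as circles, het libraries as triangles and lines through the means of 3 libraries. Tdh falls, rises and falls again in both genotypes, Gcat rises once, and Phgdh, Psat1, Psph and Mthfd2 are highest at day 2.

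Gldc (19:30098447-30175429, minus strand) varied little. It was at 269, 274 and 264 CPM in the wt lines at day 0 and at 272, 297 and 239.7 CPM in the het lines. Day 2 levels were 325, 274 and 336 CPM in wt and 355, 376 and 338 CPM in het. Every het library had risen above the day 0 range, whereas wt line 2 had not moved. The rise passed the test in het (0.41 ± 0.07 on the log2 scale, adjusted p = 0.000175) and did not in wt (0.22 ± 0.10, adjusted p = 0.096), although with library totals in place of TMM factors it did in wt too (adjusted p = 0.0376), as it did without wt line 2 (adjusted p = 0.0323). The step to day 2.5 was 0.26 ± 0.12 in wt (adjusted p = 0.118, and 0.0465 in 1 fit of all 24 libraries) and -0.21 ± 0.09 in het (adjusted p = 0.072, and 0.00709 without het line 3). From day 2.5 to day 3 the wt lines fell from 411, 338 and 371 CPM to 295, 241 and 292 CPM (-0.43 ± 0.11, adjusted p = 0.0209). The het lines went from 277, 311 and 353 CPM to 284, 298 and 277 CPM (-0.15 ± 0.09, adjusted p = 0.221). The wt fall missed the threshold without wt line 2 (adjusted p = 0.132) or without wt line 3 (adjusted p = 0.1).

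Among the 3 partners of Gldc in the glycine cleavage system, 1 fell in wt and 2 fell in het from day 0 to day 2, where 21.9% and 28.1% of all genes tested fell. In het 1 rose from day 2 to day 2.5 and 2 fell from day 2.5 to day 3, where 21.8% of all genes rose and 16% fell, and in wt none passed the test in these steps. Amt, the aminomethyltransferase, fell from 99.1 ± 5.30 (SD) to 49.1 ± 7.41 CPM in wt and from 104.9 ± 2.09 to 52.8 ± 0.878 CPM in het (n = 3 lines each). Its log2 fold changes were -1.01 ± 0.13 and -0.98 ± 0.08, with adjusted p = 2.73e-05 and 5.18e-08 in edgeR's test.

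The 3 genes of serine synthesis shared a peak at day 2. Phgdh (3:98313170-98339990, minus strand), the first and rate-controlling step, was at 168, 145 and 153 CPM in the wt lines at day 0 and at 237, 236 and 236 CPM at day 2. In the het lines it was at 134, 134 and 123 CPM at day 0 and at 269, 257 and 229 CPM at day 2. It rose in all 6 lines, by 0.61 ± 0.10 on the log2 scale in wt (adjusted p = 0.000194) and by 0.96 ± 0.07 in het (adjusted p = 2.82e-08). At day 2.5 it was at 230.3, 155 and 167 CPM in wt and at 165, 178 and 168 CPM in het. The het lines had all come down (-0.58 ± 0.09, adjusted p = 9.16e-05), while wt line 1 stayed near its day 2 level. In wt the test missed the threshold (-0.36 ± 0.14, adjusted p = 0.0654), and it passed without wt line 1 (-0.55, adjusted p = 0.00422), with the line as a block (-0.38, adjusted p = 0.0352), without the filter on low counts (-0.37, adjusted p = 0.0189) or in 1 fit of all 24 libraries (-0.36, adjusted p = 0.0142). Only 52.6% of the stretches of 75 exon bases of Phgdh are unique in the annotated exons, since 13 other genes, mostly predicted genes with Gm names, hold copies of parts of it, and its counts are uncertain to that extent.

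Psat1 (19:15904678-15947337, minus strand), the aminotransferase of the second step, was the most abundant of the 9 genes. Its level was 709.5, 688 and 616 CPM in the wt lines and 623, 722 and 632 CPM in the het lines at day 0. On day 2 the wt lines had 922, 1127 and 859 CPM and the het lines 1037, 967 and 966 CPM, so that all day 2 libraries lay above all day 0 libraries. The rise was 0.54 ± 0.11 in wt (adjusted p = 0.00118) and 0.60 ± 0.06 in het (adjusted p = 5.34e-07). By day 2.5 it had come back to 769, 674 and 662 CPM in wt and to 758, 750.4 and 785 CPM in het. The fall was -0.47 ± 0.12 in wt (adjusted p = 0.0102, and 0.147 without wt line 2) and -0.39 ± 0.07 in het (adjusted p = 0.000477).

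Psph (5:129765558-129787449, minus strand), the phosphatase that releases serine, had the largest rise of the 3. It went from 69.4, 55.1 and 57.9 CPM at day 0 to 141, 148 and 137 CPM at day 2 in the wt lines. In the het lines it went from 50.9, 60.1 and 62.4 CPM to 145, 134 and 115 CPM. This was 1.23 ± 0.12 on the log2 scale in wt (adjusted p = 2.05e-06) and 1.2 ± 0.10 in het (adjusted p = 9.65e-08). At day 2.5 it stood at 85.3, 87.0 and 88.4 CPM in wt and at 84.4, 90.6 and 79.1 CPM in het, between its day 0 and day 2 ranges. The fall was -0.71 ± 0.11 in wt (adjusted p = 0.000562) and -0.66 ± 0.10 in het (adjusted p = 0.00016). Psph shares 452 exon bases with Cct6a, so some of its reads may belong to that gene. None of Phgdh, Psat1 and Psph passed the test from day 2.5 to day 3 in either genotype, where their log2 fold changes ran from -0.14 to 0.06.

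Shmt1 and Shmt2 catalyse the same reaction in different compartments. Shmt1 passed the test in all 3 steps in both genotypes, and Shmt2 in none. Shmt1 (11:60788104-60811718, minus strand), the cytosolic enzyme, was at 149, 161 and 158 CPM in the wt lines and at 158, 165 and 153 CPM in the het lines at day 0. By day 2 it was down to 62.9, 75.6 and 84.4 CPM in wt and to 74.9, 83.0 and 73.7 CPM in het, below every library of day 0. At day 2.5 it was back at 135, 118 and 124 CPM in wt and 104, 116 and 118 CPM in het. At day 3 it was at 88.8, 88.5 and 95.8 CPM in wt and at 91.2, 85.4 and 84.5 CPM in het. The order of the 4 days was that of Tdh, on a narrower scale. The first fall was -1.06 ± 0.12 in wt (adjusted p = 9.12e-06) and -1.03 ± 0.07 in het (adjusted p = 1.77e-08). The rise was 0.75 ± 0.13 in wt (adjusted p = 0.00119) and 0.53 ± 0.09 in het (adjusted p = 0.000315). The second fall was -0.46 ± 0.10 in wt (adjusted p = 0.0116) and -0.40 ± 0.08 in het (adjusted p = 0.00384). The second fall missed the threshold without wt line 2 (adjusted p = 0.118), wt line 3 (adjusted p = 0.0771) or het line 3 (adjusted p = 0.0733), each in its own genotype. Shmt1 shares 184 exon bases with Smcr8 on the other strand, so some of its reads may belong to that gene.

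Shmt2 (10:127517123-127522444, minus strand), the mitochondrial enzyme, was at 316, 227 and 256 CPM in the wt lines and at 227, 235 and 211 CPM in the het lines at day 0. Day 2 levels were 226, 295 and 224 CPM in wt and 254, 254 and 232 CPM in het, and the wt lines had moved in opposite directions. At day 2.5 it was at 326, 185 and 175 CPM in wt and at 224, 214 and 234 CPM in het. At day 3 it was at 191, 169 and 161 CPM in wt and at 177, 203 and 204 CPM in het, lower than at day 2.5 in all 6 lines. It passed the test in no step, with log2 fold changes from -0.39 to 0.15. With the line as a block, however, the last step passed in wt (-0.34, adjusted p = 0.0355) and the first in het (0.15, adjusted p = 0.0394, and 0.0202 with library totals). The last wt step also passed without the filter on low counts (adjusted p = 0.0357). The step to day 2.5 passed without wt line 1 in wt (-0.53, adjusted p = 0.0126) and without het line 3 in het (-0.22, adjusted p = 0.0407).

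Mthfd2 (6:83305691-83325908, minus strand), the mitochondrial folate dehydrogenase, was at 206, 208 and 199 CPM in the wt lines and at 184, 191 and 185 CPM in the het lines at day 0. By day 2 it had risen to 239, 320.1 and 232 CPM in wt and to 277, 242 and 269.8 CPM in het, without overlap with day 0. It was then at 218, 165 and 174 CPM in wt and at 178, 179.6 and 198 CPM in het on day 2.5. By day 3 it was at 150.3, 137 and 158 CPM in wt and at 133, 173 and 163 CPM in het, below every day 0 library. The rise was 0.37 ± 0.12 in wt (adjusted p = 0.0218) and 0.50 ± 0.06 in het (adjusted p = 7.82e-06). The wt rise missed the threshold without wt line 2 (0.23, adjusted p = 0.129) or line 3 (0.41, adjusted p = 0.0964). The fall to day 2.5 was -0.51 ± 0.15 in wt (adjusted p = 0.0188) and -0.52 ± 0.08 in het (adjusted p = 0.000138), and in wt it missed the threshold without line 2 (-0.27, adjusted p = 0.269) or line 3 (-0.56, adjusted p = 0.0555). The last step missed the threshold at -0.32 ± 0.12 in wt (adjusted p = 0.0836) and -0.27 ± 0.10 in het (adjusted p = 0.0551). It passed with the line as a block, at -0.31 in wt (adjusted p = 0.0258) and -0.28 in het (adjusted p = 0.0405), and in wt also in 1 fit of all 24 libraries (adjusted p = 0.0393).

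**Figure D2:**
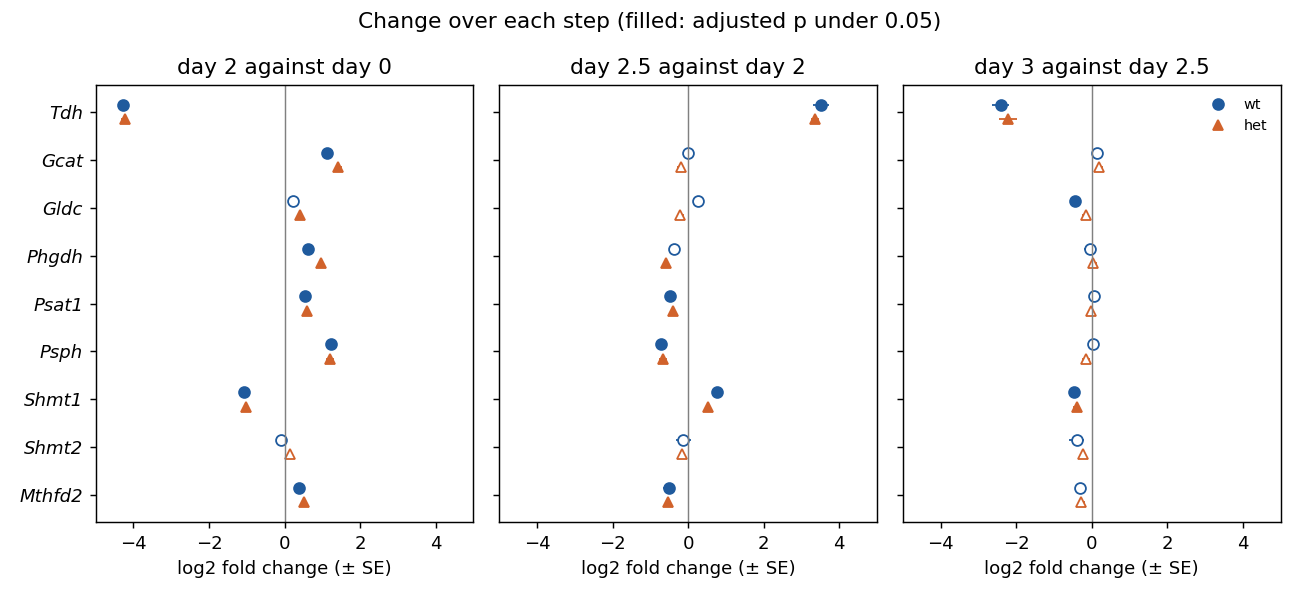
Log2 fold change (x axis, with SE) of the 9 genes over each step between days, in wt (circles) and het (triangles), filled where the adjusted p was under 0.05. Tdh lies at -4.28 and -4.23, then at 3.53 and 3.36, then at -2.41 and -2.21, and every other point lies between -1.06 and 1.42.

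Counted together, from day 0 to day 2 5 members rose and 2 fell in wt, and 6 rose and 2 fell in het. Of all genes tested, 22.4% rose and 21.9% fell in wt, and 28% rose and 28.1% fell in het. The members were chosen with earlier results of these data known, so counts and medians set beside all genes are a description. From day 2 to day 2.5, Tdh and Shmt1 rose in both genotypes, while 3 members fell in wt and 4 in het. The shares of all genes were 14.6% and 14.5% in wt and 21.8% and 22.9% in het, for rises and falls. From day 2.5 to day 3, 3 members fell in wt, 2 fell in het and none rose in either genotype. Here 8.99% of all genes rose and 10.1% fell in wt, and 13.8% rose and 16% fell in het. With the line as a block, 5 members and 2351 of all genes fell in wt in this last step, against 3 members and 1549 genes without it. Of all genes, 2923 changed with all 3 lines, 29 without wt line 2 and 988 without wt line 3, and 1 member did in either case. The median log2 fold change of the 9 members was 0.37 in wt and 0.50 in het in the first step, against 0.02 and 0.01 over all genes. It was -0.12 and -0.21 in the second step, against 0.00 and 0.01, and -0.32 and -0.15 in the third, against 0.00 and -0.02. Marker sums changed over the same steps. The 5 epiblast markers, which include Fgf5 and Otx2, summed to between 978 and 1168 CPM at day 0, to between 1226 and 1424 CPM at day 2 and to between 353 and 483 CPM at day 2.5, and all 5 fell in the second step in both genotypes. By day 3 they summed to between 148 and 271 CPM. The part of epiblast, endoderm and caudal epiblast markers in these changes was not tested.

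The library of wt line 1 at day 2.5 held the highest level among the wt libraries of that day for 8 of the 9 members. Its levels were 1.81 times the mean of the other wt libraries for Shmt2, 1.62 times for Tdh and 1.43 times for Phgdh, and 0.973 times for Psph. Its caudal epiblast markers summed to 1318 CPM against 932 and 684 CPM in wt lines 2 and 3, and its endoderm markers to 3824 CPM against 6270.2 and 10179.9 CPM. Their part was not tested. Without wt line 1, 7 members in place of 5 passed the test from day 2 to day 2.5 in wt, and 3875 in place of 4519 of all genes did. Without wt line 2, which had the lowest total of all libraries on day 2.5 (7.10 M), 3 members and 2249 genes did.

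Compared per length, as CPM per kilobase of exons, Psat1 had the highest mean level of the 9 genes in all 8 groups, from 155 in het at day 0 to 233 in het at day 2. It overlapped with no other member in any group. Tdh was the next at day 0 with 87.8 in wt and 82.7 in het, overlapping with Shmt2 in wt but not in het. At day 2 it was the lowest of the 9, at 4.49 and 4.38, apart from Shmt1 above it at 19.1 and 19.9. At day 2.5 it was the sixth, at 51.8 and 45.7. It was not apart from Mthfd2, Gldc, Shmt2 or Phgdh above it in wt, or from Gldc in het. At day 3 it was again the lowest, at 9.71 and 10.01, and in het its libraries overlapped with those of Psph. At day 0 the lowest level was that of Gcat, at 13.9 in wt and 11.9 in het, and it overlapped there with Psph at 14.0 and 13.4. The summed level of the 9 genes lay between 1695 and 2555 CPM over the 24 libraries.

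**Figure D3:**
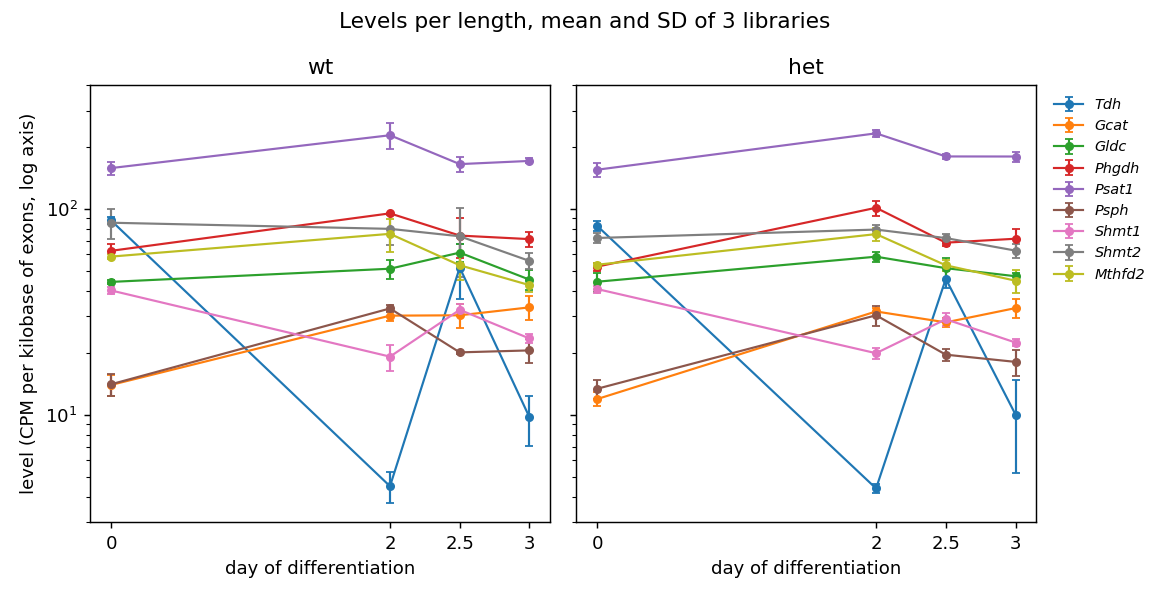
Mean level per length (y axis, CPM per kilobase of exons, log axis) by day (x axis) for the 9 genes in wt (left) and het (right), with the SD of 3 libraries as bars. Psat1 is on top throughout, and Tdh drops from 87.8 and 82.7 at day 0 to 4.49 and 4.38 at day 2.

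Over the 24 libraries, log2 CPM of Tdh and Shmt1 had a Pearson correlation of 0.953, the highest of the 36 pairs of members. The 3 pairs among Phgdh, Psat1 and Psph had correlations from 0.862 to 0.884. The lowest was that of Shmt1 and Psph, at -0.839, and Tdh and Psph stood at -0.796, while Shmt2 and Mthfd2 stood at 0.732. Apart from the members, the genes most like Tdh were its antisense gene Gm17232 (0.988), Ino80e (0.981), a subunit of the INO80 chromatin remodelling complex, and Noc4l (0.977). Gm17232 may share reads with Tdh, so its value is not independent of Tdh. The genes most like Phgdh were Pfkl (0.959), the liver-type phosphofructokinase of glycolysis, Nt5dc2 (0.944) and Pycr1 (0.930), an enzyme of proline synthesis. The 24 points share 4 days and 6 lines, so these values describe the course over days.

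**Figure D4:**
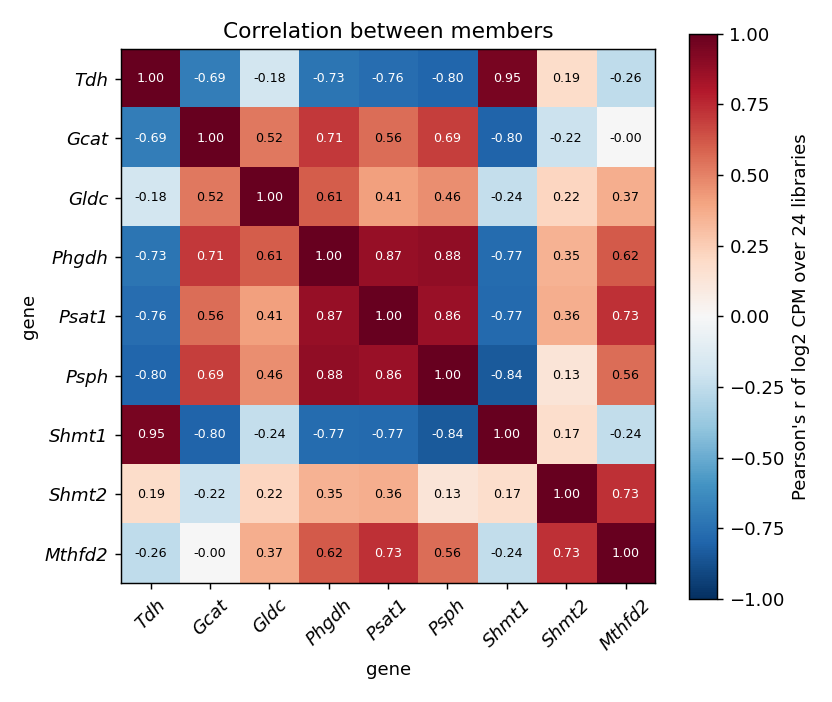
Pearson correlation of log2 CPM over 24 libraries between the 9 genes (both axes), from -1 (blue) to 1 (red). Tdh and Shmt1 form a pair at 0.953, and Phgdh, Psat1 and Psph a group from 0.862 to 0.884.

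Het lines were compared with wt lines on each day, which asks whether loss of 1 Smchd1 copy altered these genes. None of the 9 members passed the test on any day, in an edgeR test that called 0%, 0.551%, 0% and 0.00638% of all genes on the 4 days in order. At days 0 and 2.5 it thus did not call Smchd1 either, although het stood there at 66.3% and 66.0% of the wt mean without overlap. At an unadjusted p under 0.05 there were 2, 0, 1 and 0 members on the 4 days, and 1649, 1576, 822 and 1432 of all genes, and DESeq2 called 82, 233, 3 and 116 of all genes. Without the filter on low counts edgeR called 369, 384, 87 and 274. With the filter, the count over all genes depended on single lines. At day 0 it was 0 with all lines, 35 without wt line 1 and 60 without wt line 2. At day 2 it was 85 with all lines, 211 without wt line 1, 137 without wt line 2, 8 without wt line 3, and 1, 3 and 0 without het lines 1, 2 and 3. At day 2.5 it was at most 3 with any 1 line left out, and at day 3 it was 1 with all lines, 93 without wt line 1 and at most 5 without any other line. Across members and days the log2 fold changes ran from -0.27 to 0.19. None passed either when the 4 libraries of a line were added together, where 0.00544% of all genes (1 gene) did. This count was 145 with DESeq2, 190 without the filter on low counts and 404 without wt line 1, and at most 2 without any other line. The 1 member with an unadjusted p under 0.05 was Psph (-0.16 ± 0.06, adjusted p = 0.488). No member passed under DESeq2's Wald test or any other alternative, the lowest adjusted p being 0.0698 at day 0.

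Libraries of the genotypes did not overlap for 2 members at day 0, 1 at day 2 and none at days 2.5 and 3. Over all genes tested, the share without overlap was 16.7%, 16%, 11.4% and 13.9% on the 4 days. At day 0 these were Phgdh, at 123 to 134 CPM in het against 145 to 168 CPM in wt, and Mthfd2, at 184 to 191 CPM against 199 to 208 CPM. The Phgdh difference was -0.27 ± 0.09 on the log2 scale (adjusted p = 0.343) and that of Mthfd2 was -0.15 ± 0.07 (adjusted p = 0.458). At day 2 it was Gldc, at 338 to 376 CPM in het against 274 to 336 CPM in wt (0.19 ± 0.09, adjusted p = 0.528). All 11 endoderm markers tested had a lower level in het than in wt on each day, and 9 of them passed the test, at day 2. Epiblast markers summed to between 193 and 271 CPM in het and between 148 and 192 CPM in wt at day 3, with none of the 5 past the test. The part of these markers in differences between genotypes was not tested. For Tdh the difference was -0.10 ± 0.07, -0.04 ± 0.21, -0.18 ± 0.17 and 0.04 ± 0.30 on the 4 days in order. Its SE was largest at day 3, where het lines 1 and 2 stood at 15.6 and 40.1 CPM.

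**Figure D5:**
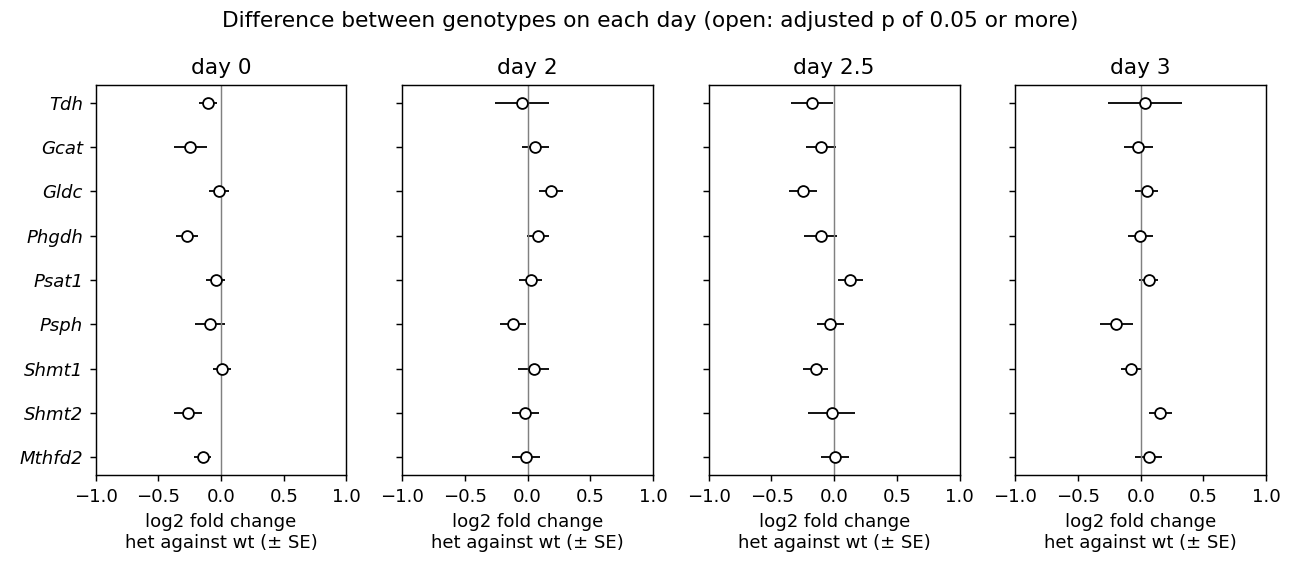
Log2 fold change of het against wt (x axis, with SE) for the 9 genes on each of the 4 days. All points are open because none passed the test, and they lie between -0.27 and 0.19.

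The change over each step was also compared between genotypes with an interaction term. None of the 9 members passed in any of the 3 steps, and edgeR's test called 0% of all genes in each (0%, 0% and 0%). At an unadjusted p under 0.05 there were 1, 1 and 0 members, and 1034, 850 and 630 of all genes. The 2 members were Phgdh in the first step, where het rose by 0.36 ± 0.12 more than wt (adjusted p = 0.754), and Gldc in the second, where het moved by -0.46 ± 0.15 relative to wt (adjusted p = 0.953). DESeq2 called 10, 0 and 0 of all genes, edgeR without the filter on low counts called 58, 33 and 23, and neither called a member. The Gldc steps that passed in 1 genotype and not in the other are therefore not shown to differ between them.

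Of 10 folate one-carbon enzymes that are no members, 2 rose and 2 fell in wt and 2 rose and 3 fell in het from day 0 to day 2, where 22.4% of all genes rose and 21.9% fell in wt and 28% and 28.1% did in het. From day 2 to day 2.5, 2 rose and 1 fell in wt and 3 rose and 3 fell in het, where 14.6% and 14.5% of all genes did in wt and 21.8% and 22.9% in het. From day 2.5 to day 3, 4 fell in wt, and 1 rose and 2 fell in het, where 8.99% and 10.1% of all genes did in wt and 13.8% and 16% in het. These shares of all genes apply to the same steps of the lists that follow. The gene lists were also chosen with earlier results of these data known, so their counts describe them and do not test them. Mthfd2l, a mitochondrial relative of Mthfd2, was called as a rise from day 0 to day 2 in both genotypes. It was near the detection limit, at 0.151 and 0.460 CPM in wt and het at day 0 and at 1.67 and 1.91 CPM at day 2. A gene at such levels passes the filter on low counts mainly through the libraries where it is high, so hardly anything but a rise could be called.

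Of 11 tested genes of folate and amino acid transport, 3 rose and 3 fell in wt and 4 rose and 5 fell in het in the first step. In the second, 4 rose and 3 fell in wt, and 6 rose and 4 fell in het, and in the third 5 fell in each genotype. Folr1, a folate receptor, fell from 120.3 ± 9.10 to 50.9 ± 7.57 CPM in wt and from 124 ± 3.66 to 55.2 ± 3.61 CPM in het from day 0 to day 2 (SD, n = 3). Slc46a1, a proton-coupled folate transporter, rose from day 2 to day 2.5 by 0.85 ± 0.28 in wt (adjusted p = 0.0337) and 1.16 ± 0.21 in het (adjusted p = 0.000592). Among enzymes that use serine, glycine or threonine, 2 rose and 5 fell of 10 tested in wt, and 2 rose and 4 fell of 8 tested in het, in the first step. In the second, 4 rose and 2 fell in wt and 4 rose and 1 fell in het, of 10 tested in each. In the third, 3 fell in wt and 5 in het.

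Sptlc1, a subunit of the enzyme that joins serine to a fatty acid in sphingolipid synthesis, fell from 60.0 ± 3.86 to 29.3 ± 4.38 CPM in wt and from 57.4 ± 2.66 to 27.7 ± 3.42 CPM in het in the first step. Dmgdh, a mitochondrial dehydrogenase that makes sarcosine, had no count in any library of day 2 and stood on day 2.5 at 1.29 CPM in wt and 1.38 CPM in het. Against a floor of 3 counts per library it was at least 8.45-fold higher in wt and at least 7.47-fold higher in het. Dmgdh could enter the test only through the day 2.5 libraries, so only a rise could be called. It is counted among the genes that rose in that step.

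Among 8 genes of the methionine cycle, which takes up the folate carbon, 1 rose and 3 fell in the first step in each genotype. In the second, 2 rose and 2 fell in wt and 3 rose and 3 fell in het. In the third, 1 rose and 2 fell in wt and 1 rose and 4 fell in het. Ahcyl1, a relative of the hydrolase of this cycle, rose from 124 ± 16.6 to 254 ± 25.4 CPM in wt and from 132 ± 1.38 to 256 ± 7.20 CPM in het from day 0 to day 2. Mat2a, which makes S-adenosylmethionine, fell in this step by -2.40 ± 0.48 in wt (adjusted p = 0.000986) and -2.71 ± 0.37 in het (adjusted p = 1.62e-05), from low levels of 6.19 and 7.18 CPM.

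De novo purine synthesis takes in glycine and folate carbon. Of its 6 genes none rose in the first step, and 4 fell in wt and 5 in het, against 21.9% and 28.1% of all genes. In the second step, 4 rose in wt, and 2 rose and 2 fell in het. In the third, 5 fell in wt and 4 in het, against 10.1% and 16% of all genes. Ppat, the committed step, fell from 336 ± 21.2 to 172 ± 10.6 CPM in wt and from 365 ± 14.6 to 183 ± 13.2 CPM in het in the first step. Adsl, a later step, rose from day 2 to day 2.5 by 0.52 ± 0.14 in wt (adjusted p = 0.0122) and 0.46 ± 0.08 in het (adjusted p = 0.000269). The medians of the 6 genes were -0.34, 0.34 and -0.44 in wt and -0.27, 0.17 and -0.35 in het over the 3 steps.

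The amino acid response is the programme in which ATF4 raises serine synthesis and amino acid import when amino acids run short. Of 10 of its genes, 4 rose and 1 fell in wt and 4 rose and 2 fell in het from day 0 to day 2, against 22.4% and 21.9% of all genes in wt and 28% and 28.1% in het. From day 2 to day 2.5, 1 rose and 1 fell in wt and 5 rose and 1 fell in het, and from day 2.5 to day 3, 5 fell in wt and 1 rose and 5 fell in het. Ddit3, a stress-induced transcription factor, rose in the first step from 11.9 ± 3.09 to 46.7 ± 6.59 CPM in wt and from 9.36 ± 1.14 to 33.2 ± 4.17 CPM in het. Slc7a11, the cystine importer, fell in the last step from 7.25 ± 0.240 to 2.18 ± 0.313 CPM in wt and from 10.04 ± 2.79 to 2.16 ± 0.0496 CPM in het. No gene of these lists passed the test between het and wt on any day or on the counts added per line.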

How the data were processed

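Poly(A) mRNA libraries (TruSeq, stranded or non-stranded kit, not given per library) were read as 75-base single ends. The authors trimmed and mapped reads to GRCm38.p6 (Trim Galore 0.4.4 and HISAT2 2.0.5, per the submitters' processing notes) and counted reads per gene in SeqMonk. The deposited values used are raw counts, 1 column per library. Deposited log2 RPKM tables and group means were not used.

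Members and gene lists were chosen with earlier results of these data known. Named list genes have the largest rise or fall called in both genotypes, and 1 gene named by this rule is not reported here. Likeness names the 3 best-correlated genes (prior count 2). Counts were tested in edgeR 4.0.16 (R 4.3.3, limma 3.58.1) with filterByExpr, TMM factors and the quasi-likelihood test, fitted separately for each of 14 comparisons, with Benjamini-Hochberg adjustment over all genes tested. A change was called at an adjusted p under 0.05. Replicates are separate lines of 1 genotype. A line gave all 4 days, so line numbers pair days within a genotype (correlations of same-line deviations: median 0.0293, -0.0465 to 0.208 over 18 pairs of days), and the block was an alternative. Others were DESeq2 1.42.0, other scaling, no filter, 1 fit of all libraries and leaving out lines. On counts simulated for day 2 against day 0 in wt (15534 genes, dispersion 0.05), the test called 195 of 200 genes changed 4-fold and 8 others. Changes smaller than 4-fold were not simulated, so this gives no sensitivity for members other than Tdh or for genotype differences. Figures used matplotlib 3.10.9 in Python 3.11.15. GENCODE annotation of GRCm38 gave coordinates.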

Additional observations from a re-analysis of the deposited data

How the results depend on the processing

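For members called in a step, 269 of 279 alternative values kept direction and call, 10 kept direction only and none reversed. The Tdh changes were called in every alternative of all 3 steps in both genotypes. Of 1062 alternatives for values not called, 17 passed the threshold. Leaving out lines gave 6 to 7 members called in wt for day 2 against day 0, with 4152 to 6363 of all genes against 6869 with all lines. In het it gave 8 to 8, with 6877 to 7757 of all genes against 8582 with all lines. For day 2.5 against day 2 it gave 3 to 7 in wt (5 with all lines and 4519 of all genes). Here wt gave 3 without line 2, with 2249 genes, and 2545 genes were called without line 3 and 3875 without line 1. In het it gave 6 to 8, with 4855 to 6327 of all genes against 6963 with all lines. For day 3 against day 2.5 it gave 1 to 3 in wt (3 with all lines and 2923 of all genes). Here wt gave 1 without line 2, with 29 genes, or without line 3, with 988 genes. In het it gave 1 to 2 (1 without het line 3), with 2385 to 3032 of all genes against 4710 with all lines. With the line as a replicate block, day 3 against day 2.5 in wt gave 5 members and 4687 genes in place of 3 and 2923, and the block changed no other count of members by over 1.5 times. Between genotypes, equal numbers are different lines (correlations of their deviations: median -0.0181, -0.0841 to 0.0768, 12 pairs). The block called 0 members there, and 25, 97, 0 and 100 of all genes on the 4 days and 50 on the counts added per line. Other scaling shifted the median of all genes by at most 0.0808 on the log2 scale. The cause of these differences was not tested. With 3 lines a genotype, a difference of -0.27 ± 0.09 (SE) on the log2 scale, that of Phgdh at day 0, did not pass the test.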
